A study of Mus musculus with 3 samples.

Results

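The interferon-stimulated genes examined here are Ifit1, Ifit2, Ifit3, Oas2, Oasl2, Rsad2, Isg15, Ifi44 and Irf7, taken as every non-control probe that the arrays name for one of these 9 genes. They were read by 14 of 41174 probes, and all 14 were among the 29576 probes bright enough to be tested, which stood for 20186 genes or unnamed targets. Lrrc10 encodes a leucine-rich repeat protein of heart muscle cells, and the study asked which transcripts differ between hearts with and without it. Hearts of C57/BL6 mice were taken at 2 months of age. On each of 3 arrays on 1 slide, Cy5-labelled RNA from Lrrc10-/- hearts was hybridised against Cy3-labelled RNA from Lrrc10+/+ (wild type, WT) hearts. The methods give 2 pooled littermate hearts per genotype and 3 independent biological replicates. The Lrrc10-/- line carries a germline deletion, so the gene is missing from every cell, and neither channel received any treatment.

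Type I interferons are signalling proteins that cells release when their sensors find viral or misplaced nucleic acid. They bind the receptor Ifnar1/Ifnar2, whose kinases Jak1 and Tyk2 pass the signal on to a transcription factor complex that includes Irf9. That complex binds interferon-stimulated response elements in the promoters of target genes. The 9 genes are widely used readouts of that response, and heart cells keep low levels of many such transcripts without infection.

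Ifit1, Ifit2 and Ifit3 encode tetratricopeptide repeat proteins that bind foreign RNA. They are neighbours on chromosome 19, at chr19:34640889-34650009, chr19:34550550-34576534 and chr19:34583119-34588982 (RefSeq, GRCm38.p6). Oas2 (chr5:120730333-120749886) encodes an enzyme that makes 2′-5′ oligoadenylate from ATP after binding double-stranded RNA, and Oasl2 (chr5:114896926-114912245) a related protein. Rsad2 (viperin, chr12:26442743-26456452) encodes a radical SAM enzyme that makes a chain-terminating nucleotide, Isg15 (chr4:156199424-156200818) a ubiquitin-like modifier, Ifi44 (chr3:151730922-151749910) an interferon-induced protein, and Irf7 (chr7:141263183-141266499) the transcription factor that drives further interferon production. A few probe sequences are given to show what the arrays measured for members described at length below, written 5′ to 3′ with no part marked in capitals.
Ifit1, probe A_51_P327751: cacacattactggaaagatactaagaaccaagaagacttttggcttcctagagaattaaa
Irf7, probe A_51_P421876: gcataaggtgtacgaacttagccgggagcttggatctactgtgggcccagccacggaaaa
Rsad2, probe A_51_P505132: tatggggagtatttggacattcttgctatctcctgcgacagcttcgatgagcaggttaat
Rsad2, probe A_51_P505134: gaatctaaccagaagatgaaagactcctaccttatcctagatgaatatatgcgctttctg

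The promoters of 4 members held the core of an interferon-stimulated response element. The letters searched were GAAANNGAAA and, for the opposite strand, TTTCNNTTTC, in the 250 bases before and 50 bases after each start site, with overlapping matches counted. RefSeq promoters were found for 8 of the 9 genes, Oas2 being the other one. Ifit1 held 2 matches beginning 104 and 85 bases before the start site, Ifit3 held 2 at 156 and 122 bases, Isg15 held 3 overlapping ones between 78 and 66 bases, and Rsad2 held 1 at 120 bases. Matches were present in 3.44% of all 32851 promoters of the same length, or in 3.99% of the 27025 genes they belong to, and in 41 of 108 other interferon pathway genes with a promoter. The stretches with matches are shown for the 4 members that hold them, a trait apart from any measured value. They are read on the gene's own strand, and capitals mark the matching letters (overlapping matches run together).
Ifit1, chr19:34640765-34640833, + strand: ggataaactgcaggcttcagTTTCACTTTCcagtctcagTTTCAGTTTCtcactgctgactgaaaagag
Ifit3, chr19:34583353-34583436, + strand: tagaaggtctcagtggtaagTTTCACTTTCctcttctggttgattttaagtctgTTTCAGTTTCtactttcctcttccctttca
Isg15, chr4:156200855-156200916, - strand: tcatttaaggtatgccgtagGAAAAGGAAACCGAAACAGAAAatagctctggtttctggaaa
Rsad2, chr12:26456543-26456592, - strand: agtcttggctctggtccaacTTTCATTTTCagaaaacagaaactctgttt

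Before any direction is given, the deleted gene itself has to be set beside the labels. The Lrrc10 probe read 14282.7, 20828.1 and 17702.8 in Cy5 on replicates 1, 2 and 3, and 476, 443 and 352 in Cy3, in background-subtracted and dye-normalised fluorescence units (processed signal). Its log2 ratio of Cy5 over Cy3 was 4.91, 5.56 and 5.65, with an adjusted p of 0.00025 (limma). The channel labelled Lrrc10-/- was therefore the bright one on all 3 arrays, which goes against the label. Where the probe lies relative to the deleted stretch is not given in the sources used here. For this reason each direction below is given by channel: Cy5 is the channel labelled Lrrc10-/- and Cy3 the channel labelled WT, and every sign turns if the labels are exchanged. The heart label fitted its defining markers, since Myh6, Tnnt2, Actc1, Myl2, Tnni3 and Ryr2 all stood well above background, whichever channel or array was read. The 3 arrays had 28942 to 30810 of 43379 gene spots well above background per channel. The number of arrays limits the precision, and as no dyes were swapped, a dye effect and a genotype effect cannot be told apart. The labels leave it unclear whether 1 WT pool served all 3 arrays, in which case the p-values leave out the spread between WT pools.

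None of the 9 genes differed between the channels beyond the spread of the arrays. The mean log2 ratio of the brightest probe of each gene lay between -0.16 for Ifi44 and 0.21 for Oas2, with a median of 0.09, which ranged from 0.0037 to 0.19 when 1 array was left out. limma called 0 of the 14 member probes at an adjusted p under 0.05, against 0.00676% of all tested probes. At an unadjusted p under 0.05 it was again 0 of 14, against 3.07% of all tested probes, and the lowest unadjusted p of a member was 0.144, for Rsad2. With the methods' t-test, 0 of 14 reached that level as well, out of 1244 over all tested probes. The 95% intervals of all 14 mean ratios held 0. For the brightest probes they ran, as examples, from -0.37 to 0.56 for Ifit1, from -0.65 to 0.34 for Ifi44 and from -0.33 to 0.74 for Oas2, so differences within them were not excluded. An exact sign-flip test of 3 arrays cannot go below 0.25.

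The ratios changed sign between arrays. All 9 genes had both signs among their 3 arrays at the brightest probe, as most of all tested probes had. A single probe of the 14, one of Rsad2, was brighter in Cy5 on all 3 arrays, against 10.0% of all tested probes, and 0 of 14 were brighter in Cy3 on all 3 arrays, against 11.0%. The selection in the methods asks for at least a 1.2-fold difference the same way on every array and a p under 0.05, read here as the p of each single array. It took 0 of 14 member probes, against 0.913% of all tested probes.

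**Figure D1:**
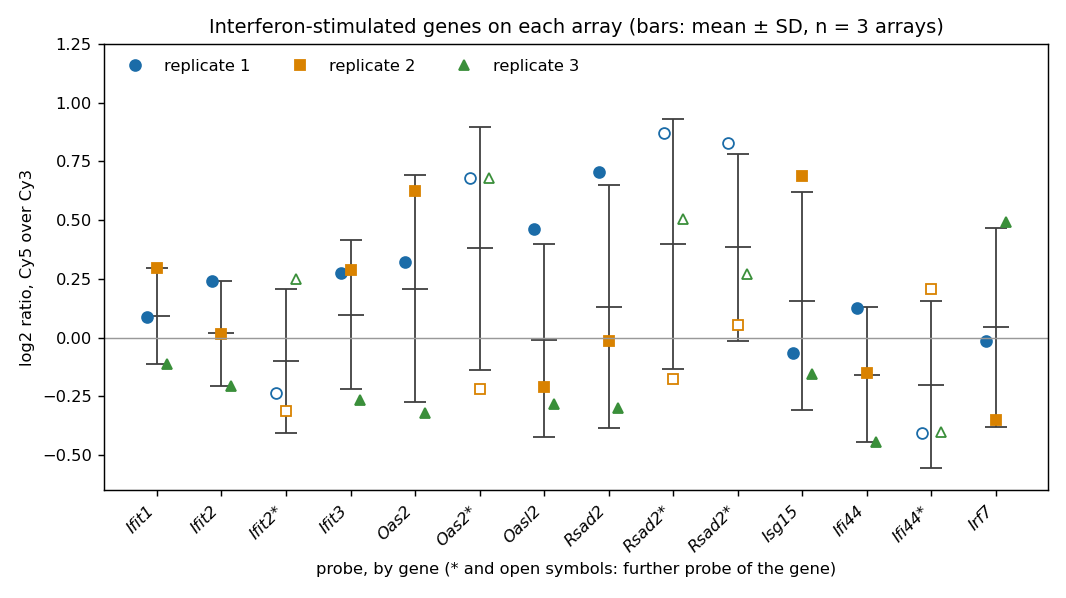
The 14 member probes on a log2 scale, as the ratio of Cy5 over Cy3, with 1 symbol per array, the mean as a dash and the SD as a bar (n = 3). Filled symbols are the brightest probe of each gene, and on replicate 3 a single filled symbol, that of Irf7 at 0.49, lies above 0.

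Ifit1 and Ifit3 gave small ratios with the same signs on each array. Ifit1 had log2 ratios of 0.09, 0.30 and -0.11 on replicates 1, 2 and 3, from processed signals of 549, 830 and 945 in Cy3 and 584, 1020.3 and 875 in Cy5. Its mean ratio was 0.09 ± 0.21 (SD, n = 3), with a limma adjusted p of 1.00. The difference was thus smaller than the spread, and replicate 3 alone was brighter in Cy3. Ifit3 followed the same order of signs, with ratios of 0.27, 0.29 and -0.27 and a mean of 0.10 ± 0.32. Its processed signals were 2023.8, 2732.6 and 1485.9 in Cy3 against 2446.5, 3335.2 and 1235.5 in Cy5. Both channels of Ifit3 were lowest on replicate 3, and the ranges of the channels overlapped.

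Ifit2 was read by a pair of probes that did not take the same signs. The brighter one, A_51_P161021, had log2 ratios of 0.24, 0.02 and -0.20, with a mean of 0.02 ± 0.22. The dimmer one, A_52_P542388, had ratios of -0.24, -0.31 and 0.25, with a mean of -0.10 ± 0.31. On each of replicates 1, 2 and 3 the pair lay on opposite sides of 0. The near-identical neighbour Ifit3b, which is not a member, was read by a probe of its own with ratios of 0.46, 0.28 and -0.32, the same signs as Ifit3. How much of either probe's signal comes from the other gene was not tested.

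The oligoadenylate synthetase genes varied more between arrays. Oas2 had log2 ratios of 0.32, 0.63 and -0.32 at its brighter probe A_51_P277994, with a mean of 0.21 ± 0.48, the highest mean among the brightest probes. Without replicate 2 that mean was 4.5e-05, and without replicate 3 it was 0.47. Its processed signals were 995, 1330.0 and 1277.1 in Cy3 and 1243.2, 2053.1 and 1022.2 in Cy5. Cy5 was brighter on replicates 1 and 2 and Cy3 on replicate 3. Feature Extraction also gives each spot a p-value on each array, from its own error model, and this single-array p was 0.00314 on replicate 2 and 0.12 on the others. The dimmer Oas2 probe, A_52_P587071, was well above background in Cy3 on 1 array and in Cy5 on 2. Its ratios of 0.68, -0.22 and 0.68 opposed those of the brighter probe on replicates 2 and 3.

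Oasl2 was brighter in Cy5 on replicate 1 only. Its log2 ratios were 0.46, -0.21 and -0.28, with a mean of -0.01 ± 0.41 and a single-array p of 0.0268 on replicate 1. The Cy3 signals of 1066.2, 2079.5 and 1308.2 and the Cy5 signals of 1468.8, 1796.5 and 1076.1 overlapped throughout.

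Rsad2 carried the largest single-array ratios of the 9 genes, all of them on replicate 1. The brightest probe, A_52_P670026, had log2 ratios of 0.70, -0.01 and -0.30, with a mean of 0.13 ± 0.52. Its processed signals were 1295.2, 2630.8 and 1917.3 in Cy3 and 2111.2, 2609.2 and 1558.4 in Cy5. Replicate 1 was set apart by its low Cy3 signal, and without that array the mean turned to -0.16.

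The other two Rsad2 probes, whose sequences are given above, had the same sign as the brightest one on replicate 1 and the opposite sign on replicate 3. Probe A_51_P505132 had ratios of 0.87, -0.18 and 0.50, with a mean of 0.40 ± 0.53, and probe A_51_P505134 had 0.83, 0.05 and 0.27, with a mean of 0.38 ± 0.40. The latter is the member probe that was brighter in Cy5 on all 3 arrays. All 3 probes had single-array p-values under 0.05 on replicate 1, of 9.9e-04, 7.6e-05 and 1.6e-04. These probes read 1 gene in 1 hybridisation and are not independent measurements.

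Isg15 was close to 0 on replicates 1 and 3 and brighter in Cy5 on replicate 2. Its log2 ratios were -0.07, 0.69 and -0.15, with a mean of 0.16 ± 0.46 and a single-array p of 0.0014 on replicate 2. The Cy3 signals were 490, 462 and 585 and the Cy5 signals 468, 744 and 526. Replicate 2 alone lifted the mean, which was -0.11 without it.

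Ifi44 was the member with the lowest mean. At its brighter probe, A_51_P487690, the log2 ratios were 0.13, -0.15 and -0.45, with a mean of -0.16 ± 0.29 and a single-array p of 0.0329 on replicate 3. The dimmer probe, A_52_P550858, which the array ties to a cDNA clone of the gene, gave -0.40, 0.21 and -0.40, with a mean of -0.20 ± 0.35. Both probes were brighter in Cy3 on replicate 3 and took opposite signs on the other arrays.

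Irf7 took the opposite sign from the remaining members on replicate 3. Its log2 ratios were -0.02, -0.35 and 0.49, with a mean of 0.04 ± 0.42. The processed signals were 197, 286 and 107 in Cy3 and 194, 225 and 151 in Cy5. Replicate 3 was the array on which Cy5 was brighter, with a single-array p of 0.0236, and it was the array on which the other 8 genes were brighter in Cy3 at their brightest probes.

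The member probes with a single-array p under 0.05 changed from array to array. On replicate 1, 4 member probes were brighter in Cy5 at a single-array p under 0.05, those of Oasl2 and Rsad2, where 12.1% of all tested probes were, and 0 were brighter in Cy3, where 13.0% were. On replicate 2, Oas2 and Isg15 gave 2 probes brighter in Cy5, where 18.9% of all tested probes were, and 0 were brighter in Cy3, where 18.6% were. On replicate 3, 2 probes, of Rsad2 and Irf7, were brighter in Cy5, where 14.8% were, and 1 probe, of Ifi44, was brighter in Cy3, where 13.7% were. Most of these were brighter in Cy5, but 4 of them were the Oasl2 and Rsad2 probes of replicate 1, and the probes of Rsad2 read 1 gene.

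Taken array by array, the brightest probes of most of the 9 genes leaned to Cy5 on replicate 1 and to Cy3 on replicate 3. At the brightest probes their median log2 ratio was 0.24 on replicate 1, where 7 of 9 were brighter in Cy5, 0.02 on replicate 2, where 5 of 9 were, and -0.27 on replicate 3, where 1 of 9 was. The medians of all tested probes on the same arrays were 0.005, 0.006 and -0.007. From replicate 3 to replicate 1 the ratio was higher in 8 of 9 genes, by a median of 0.54, against 50.8% of all tested probes and a median of 0.01. Between replicates 2 and 3 it was also higher on replicate 2 in 8 of 9 genes, by a median of 0.30, against 49.3% of all tested probes. Irf7 was the exception in both cases. Replicate 1 was higher than replicate 2 in 5 of 9 genes. Over all 14 member probes the counts brighter in Cy5 were 10, 7 and 5 on replicates 1, 2 and 3. No test was made of this shift, since the genes of 1 hybridisation are not replicates.

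The 49 other tested interferon targets, a list of further genes of the same response, had medians on the 3 arrays in the same order with the deposited ratios. Their median log2 ratios were 0.21, 0.03 and -0.20 on replicates 1, 2 and 3, with 33, 27 and 14 of 49 brighter in Cy5. Over the 20186 tested genes the medians were 0.00, 0.04 and -0.06. With normexp and loess the targets' medians were 0.14, 0.04 and -0.04, with 21 of 49 above 0 on replicate 3. With normexp and centring on the median they were 0.41, 0.25 and 0.26, with 37 of 49 above 0 on replicate 3, so the side of 0 on replicate 3 was not kept. Relative to all tested probes under that centring the targets lay 0.30, 0.15 and 0.06 higher on replicates 1, 2 and 3. The targets of interferon gamma did not take that order, with medians of 0.07, -0.44 and 0.19 over 19 genes.

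**Figure D2:**
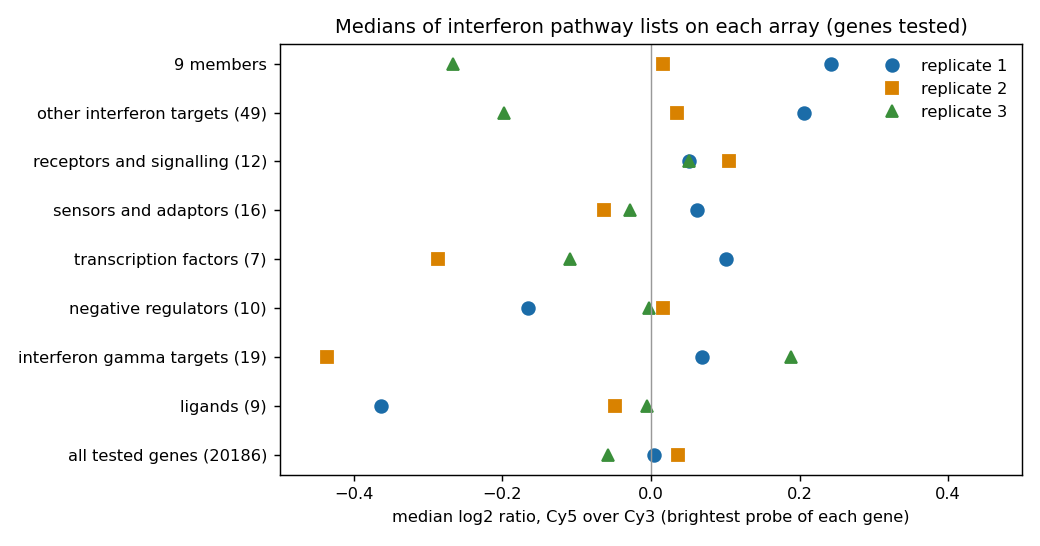
Median log2 ratio of Cy5 over Cy3 on each array for the 9 members, the interferon pathway lists and all tested genes, at the brightest probe of each gene, with the number of genes tested in brackets. The members lie at 0.24, 0.02 and -0.27 and the other interferon targets at 0.21, 0.03 and -0.20 on replicates 1, 2 and 3.

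The shift on replicate 3 depended on the dye correction. With normexp background correction and loess the members' medians were 0.09, 0.03 and -0.21, and 1 of 9 genes was still above 0 on replicate 3. When each array was only centred on its median, without a correction by intensity, they were 0.32, 0.33 and 0.27, and 8 of 9 genes were above 0 on replicate 3. That centring also left the median of all tested probes at 0.11, 0.10 and 0.20. Relative to those, the members lay 0.21, 0.23 and 0.07 higher, with 5 of 9 above the median of all tested probes on replicate 3. The order of replicates 1 and 3 was kept, and the side of 0 was not. Under that centring 6 of the 14 member probes had an unadjusted limma p under 0.05, against 30.6% of all tested probes, and 0 an adjusted one. The highest mean ratios were then those of Oas2 at 0.65 and Ifit3 at 0.56, with limma adjusted p-values of 0.0732 and 0.0888.

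Signal strength moved with the sign on replicate 3 as well. Among the member probes with a geometric mean signal of both channels under 300 on that array, a limit chosen after the values were seen, 5 of 6 were brighter in Cy5. At 300 or more, 0 of 8 were. On replicate 1 the counts were 1 of 4 and 9 of 10, and on replicate 2 they were 1 of 4 and 6 of 10. Of all tested probes, 50.6% were brighter in Cy5 below the limit and 48.0% above it on replicate 3. The dye correction by intensity holds such shares near even, so they cannot show whether the division is particular to the members. On replicate 3 Ifit2, Oas2 and Rsad2 each had probes on both sides of the limit, so the split overlaps with the disagreement between their probes. The part of signal strength in that disagreement was not tested.

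The channels were then read one at a time, after scaling the average intensity of the arrays to equal quantiles, which makes levels of a probe roughly comparable between arrays. The Cy3 level of Ifi44 was 8.58, 9.19 and 9.75 (log2) on replicates 1, 2 and 3, a range of 1.17, and its Cy5 level was 8.70, 9.04 and 9.30, a range of 0.60. Rsad2 had Cy3 levels of 10.43, 11.02 and 11.15 and Cy5 levels of 11.13, 11.01 and 10.85. For Rsad2 the channels thus ran in opposite directions over the same arrays, while for Ifi44 they ran in the same direction. Ifit3 moved more in Cy5, with 11.36, 11.36 and 10.52 against 11.09, 11.07 and 10.79 in Cy3, as did Ifit2, with ranges of 0.39 in Cy5 and 0.27 in Cy3.

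**Figure D3:**
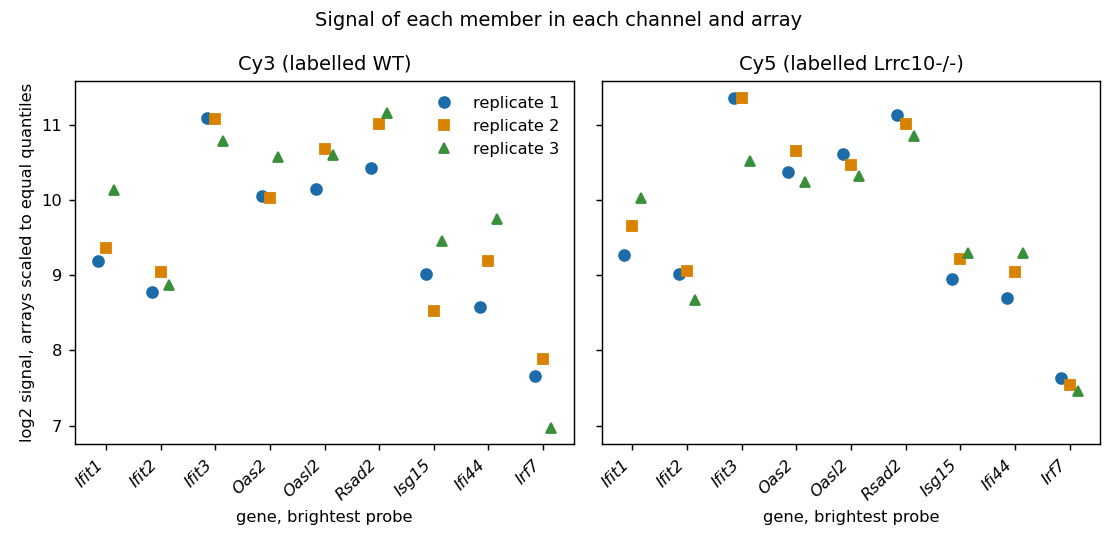
Log2 signal of the brightest probe of each member in Cy3 (left) and Cy5 (right), with 1 symbol per array, after the arrays were scaled to equal quantiles of average intensity. For Rsad2, Cy3 lies lowest on replicate 1 (10.43) and Cy5 lies highest there (11.13).

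Most members varied more between arrays in the channel labelled WT than in the channel labelled Lrrc10-/-. The SD over arrays was larger in Cy3 than in Cy5 for 7 of 9 members, with median SDs of 0.39 and 0.21. The same held for 78.2% of all tested probes, with medians of 0.38 and 0.21, so the members were like the rest of the array in this. The SD of the ratio over arrays was 0.21 to 0.52 among the members, with a median of 0.41, and 0.39 over all tested probes. From replicate 1 to replicate 3, 7 of 9 members were higher in Cy3, by a median of 0.45, where 52.3% of all tested probes were. In Cy5, 3 of 9 were higher on replicate 3, with a median difference of -0.17, where 14795 of 29576 tested probes were.

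The other genes of the pathway gave no calls either. Of 142 genes listed, 122 had a tested probe, and limma called 0 of them at an adjusted p under 0.05 in any list. At an unadjusted p under 0.05, 2 of 122 were brighter in Cy5, against 1.55% of all tested genes, and 4 in Cy3, against 1.79%. Counts of genes with 3 ratios above 0 came to 18 of 122, against 9.47% of all tested genes, and of genes with 3 ratios below 0 to 17, against 12.3%.

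Among the ligands, Ifna2, an alpha interferon, had log2 ratios of -0.62, -0.67 and -0.35, a mean of -0.55 ± 0.18, from signals of 139 to 416, and Ifng, the type II interferon, had -0.72, -0.28 and 0.22. In the list of receptors and signalling, Jak1, a kinase bound to the receptor, had 0.62, -0.22 and 0.28. Its order over the arrays was not that of the members.

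Among the sensors and adaptors, Sting1, the adaptor of cytosolic DNA sensing, had log2 ratios of -0.31, -0.35 and -0.74, and Cgas, the enzyme that makes its ligand, had 0.23, 0.50 and 0.19. Irf3, which switches on interferon genes upon sensing, had -0.18, -0.29 and -0.44. Each of these stayed on 1 side of 0 on all arrays, at limma adjusted p-values of 1.00. Of the 16 sensors and adaptors 4 were above 0 and 3 below 0 on all arrays, against 9.47% and 12.3% of all tested genes. Among the 10 negative regulators 2 were above 0 and 2 below 0 on all arrays, against the same shares. One of those below 0 was Socs1, an inhibitor of Jak kinases, with -0.81, -0.77 and -0.31 and a mean of -0.63 ± 0.28. Usp18, which removes Isg15 from proteins and dampens the receptor, had -0.04, -0.39 and -0.64, and Ptpn6, a phosphatase of blood cells, had -0.60, 1.33 and 0.34.

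In the list of other interferon targets 8 of 49 genes kept a ratio above 0 on the 3 arrays and 6 kept one below 0, which is 16.3% and 12.2% against the 9.47% and 12.3% of all tested genes. Ifi205, of the HIN-200 family of DNA-binding proteins, was the 1 gene of the 122 that passed the selection of the methods, which 1.05% of all tested genes passed. Its log2 ratios were 0.71, 0.96 and 0.54, with a mean of 0.74 ± 0.21 and a limma unadjusted p of 0.00462 and adjusted p of 1.00. Ube2l6, the enzyme that hands Isg15 to its targets, had 0.23, 0.70 and 0.54, and Samd9l, an antiviral factor, had 0.58, 0.86 and 0.15. Both had 3 ratios above 0, as no member had at its brightest probe.

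limma called 0 markers of other cells or of heart muscle at an adjusted p under 0.05, and in bulk tissue fewer cells of a type cannot be told apart from less RNA per cell. Of the red blood cell markers, 2 of 3 were tested: Hba-a1 (alpha globin), saturated on at least 1 array, had log2 ratios of 0.96, 0.96 and -0.02, and Alas2 (heme synthesis) 0.63, 1.04 and -0.32. Both were lower on replicate 3 than on replicate 1, as were 8 of the 9 members. Their summed processed signal ran from 68037 to 109593 in Cy3 and from 107748 to 182753 in Cy5. Of the leukocyte markers 10 of 11 were tested, with medians of -0.18, 0.12 and 0.00 and with 2, 8 and 5 of 10 brighter in Cy5 on replicates 1, 2 and 3. Their summed signal was 98901 to 128089 in Cy3 and 119797 to 189862 in Cy5, carried mostly by Lyz2 (lysozyme of myeloid cells), which was saturated on at least 1 array.

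The 4 endothelial markers had medians of 0.19, -0.48 and -0.17, and their summed signal was 16153 to 32813 in Cy3 and 14797 to 20085 in Cy5. The 4 fibroblast markers had medians of 0.34, -0.36 and -0.13, with summed signals of 98540 to 158926 in Cy3 and 104435 to 163692 in Cy5. The medians of both lists were also lower on replicate 3 than on replicate 1, but they were lowest on replicate 2, unlike those of the members. The leukocyte median went the other way, from -0.18 on replicate 1 to 0.00 on replicate 3. The 6 cardiomyocyte markers had medians of -0.17, -0.51 and -0.21, with a summed signal of 727332 to 1205740 in Cy3 and 698350 to 892494 in Cy5. Of these, Myl2 (ventricular myosin light chain), with -0.88, -0.53 and -0.58, and Tnnt2 (cardiac troponin T), with -0.81, -0.48 and -0.51, passed the selection of the methods. Myh6 (alpha myosin heavy chain) had 0.03, -0.48 and 1.45. All of the 6 but Ryr2 were saturated on at least 1 array, so that their ratios and sums are limited by the scanner. The part of the tested markers in the array-by-array shift of the interferon-stimulated genes was not tested.

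Genes outside the members were ranked by how near their 3 ratios lay to the members' median of 0.24, 0.02 and -0.27, as the root mean square difference over the 3 arrays. Of 17724 candidates well above background on all arrays the nearest was Bicc1, with log2 ratios of 0.23, 0.01 and -0.27 and a difference of 0.01. Slbp followed at 0.02 and Lims2 at 0.03, and the further entries among the first 5 were probe A_51_P402908 and the transcript ENSMUST00000112315, at 0.02 and 0.03. For comparison, Ifit2 lay at 0.04 with 17 candidates nearer, Ifi44 at 0.16 with 899 nearer and Irf7 at 0.51 with 12034 nearer. Ifit2 itself is the middle gene on replicates 1 and 2, so its distance comes from replicate 3. With 3 arrays near profiles are to be found among many genes, and the ranking is a description.

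Members with and without the response element letters in their promoters were set side by side, leaving out Oas2. The 4 genes with a match, Ifit1, Ifit3, Isg15 and Rsad2, had median log2 ratios of 0.18, 0.29 and -0.21 on replicates 1, 2 and 3, and the 4 without one, Ifit2, Oasl2, Ifi44 and Irf7, had 0.18, -0.18 and -0.24. The mean ratios lay between 0.09 and 0.16 with a match and between -0.16 and 0.04 without one. Both sets were higher on replicate 1 than on replicate 3, and with so few genes the difference on replicate 2 is given as a description.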

How the data were processed

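RNA of both channels was hybridised to Agilent whole mouse genome 4x44K arrays. Per the file headers, Feature Extraction subtracted background and corrected dyes by intensity, and the deposited files hold per spot a log10 ratio of Cy5 over Cy3, a p-value of that ratio, and processed, mean and background intensity. The deposited series table equals these log ratios exactly, apart from 1 missing value on replicate 1; its columns have a median of 0. All 3 arrays formed 1 group. Log10 ratios were converted to log2, outlier spots dropped, spots of a probe averaged, and probes with a geometric mean processed signal of at least 20 tested against 0 (limma 3.58.1 in R 4.3.3, eBayes with intensity trend, Benjamini-Hochberg over all 29576 probes, tested on simulated data). The brightest probe stood for a gene. Symbols were updated by accession for 24836 of 41174 probes. Separate channel levels came from Aquantile scaling. Alternatives were other background (normexp, offset 50) and dye corrections, signal filters, tests and leaving out each array. Named genes were all members, Lrrc10, up to 3 genes per list with the largest absolute mean ratio among those well above background in each channel and array, and the 5 nearest profiles; some of those are not reported here, and Myh6 and Ifit3b were added after their values were seen. Members and lists were chosen with earlier results of these data known. Exon and UTR positions of the probes were not used here.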

Additional observations from a re-analysis of the deposited data

How the results depend on the processing

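limma called 0 member probes and 0 other pathway genes under all alternatives run, which included no intensity trend and leaving out each array. The methods' t-test after Benjamini-Hochberg adjustment also called 0. Over all probes fitted, the t-test called 0, as did limma without a signal filter and without replicate 2, so 0 members were fixed there. The other alternatives called 1 or 2 probes in all, except without replicate 3, so these counts say little about stability. The median of the members' means, 0.09, was 0.062 with normexp and loess, 0.17 with centring on the median and 0.0037 (without replicate 2) to 0.19 (without replicate 3) with 1 array left out, near 0 at its lowest. The count of member probes brighter in Cy5 on all arrays was 2 with normexp and loess, where 16.7% of all tested probes were, and 8 with normexp and centring on the median, where 41.2% of all tested probes were and their median stood at 0.15. With 1 array left out it ran from 1 to 5, the highest without replicate 3, where 23.3% of all tested probes were. The count brighter in Cy3 on all arrays was 1 with normexp and loess (15.3% of all tested probes) and 2 to 3 with 1 array left out (22.2% to 26.2%). The selection of the methods took 1 member probe without replicate 2 and 0 otherwise. Leaving out an array loosens that selection for every probe, and the share over all tested probes was not counted there, so the 1 is not read further. Mean log2 ratios that changed sign were those of Ifit2 (-0.10) and Isg15 (-0.084) with normexp and loess, and of Oasl2 (0.12) and Ifi44 (0.015) with centring on the median. With 1 array left out the means ran from -0.012 to 0.19 for Ifit1, -0.093 to 0.13 for Ifit2, 0.0037 to 0.28 for Ifit3, 4.5e-05 to 0.47 for Oas2, -0.30 to -0.012 for Ifi44, -0.25 to 0.13 for Oasl2, -0.16 to 0.35 for Rsad2, -0.11 to 0.31 for Isg15 and -0.18 to 0.24 for Irf7. Leaving out replicate 3 raised the calls over all probes from 2 brighter in Cy5 and 0 in Cy3 to 409 and 134, with 0 members among them; the cause was not tested. The dim Oas2 probe stood near background on several arrays, which limits its ratio.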
